A study of Homo sapiens with 6 samples.

Results

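The 35 genes described here encode the machinery that folds proteins in the lumen of the endoplasmic reticulum (ER) and removes those that fail to fold. They were chosen by symbol from the 54308 genes listed in the deposited table, with earlier results of these data known. They are chaperones and their partners, disulfide isomerases and oxidases, and components of ER-associated degradation (ERAD). All 35 were among the 19306 genes that could be tested. The cells were 143B, a human osteosarcoma (OS) line, in which CNTNAP4, a neurexin-family cell surface protein and receptor of the secreted factor NELL-1, had been deleted with CRISPR/Cas9. RNA-seq was compared between 3 CNTNAP4 KO and 3 vector control (VC) libraries. The labels give the KO cells as transfected with a CNTNAP4 KO plasmid and the VC cells with vector plasmid, both for 48 h, while the methods describe RNA from clonal cells grown from sorted single cells that carried the Cas9 and RFP plasmid. Both groups were thus exposed to a transfected plasmid and shared the same parent line and medium. Which KO clone or clones gave the 3 RNA samples is not stated in the sources used here, so p-values measure the spread between these RNA samples, and the deletion cannot be told apart from differences between clones.

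The ER folds secreted and membrane proteins with the help of BiP and GRP94, of J-domain partners that hand clients to BiP, of lectins that hold glycoproteins, and of enzymes that form and rearrange disulfide bonds. Proteins that stay unfolded are recognised by their trimmed glycans, passed through a membrane channel, marked with ubiquitin by the HRD1 ligase and pulled into the cytosol by the ATPase VCP for destruction by the proteasome. When unfolded protein builds up, the sensors IRE1, PERK and ATF6 start the unfolded protein response (UPR), in which the transcription factors XBP1, ATF6 and ATF4 act on many of these genes, and bone-forming cells, which secrete collagen, are known to rely on this system.

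Values are log2 signals from the deposited table, in which a difference of 1 is a doubling. The linear unit under the log2 scale and the read depth are unknown, so levels were not compared between genes. The 6 libraries held values for 20333 to 21041 genes each and had nearly the same distribution of signals. CNTNAP4 itself had a value in 1 library, VC replicate 3, at -7.18, and therefore gave no check of the labels. Of markers of the osteoblast lineage and mesenchyme, 7 of 8 could be tested, and VIM was at 10.3 to 10.9 and RUNX2 at 1.30 to 1.69 in the 6 libraries, while COL1A2 lay at -4.59 or lower and BGLAP had values in 2 libraries only. SPP1 (log2 fold change 1.55, adjusted p = 0.0096), ALPL (0.58, adjusted p = 0.020), SPARC (0.37, adjusted p = 0.021) and COL1A1 (0.33, adjusted p = 0.031) were higher in KO and COL1A2 was lower (-0.81, adjusted p = 0.016), and of these calls that of SPP1 alone held in each of 6 fits that left out 1 library. The log2 of the summed mesenchymal signal, most of it VIM, was 10.4 to 10.6 in VC and 10.7 to 11.04 in KO. For 3 epithelial markers it was 1.62 to 1.81 in VC and 0.934 to 1.23 in KO, with CDH1 in 1 library only, and for 2 endothelial markers it was -4.50 or lower in all libraries. The 2 blood markers summed to 4.43 to 4.52 in VC and 5.71 to 6.46 in KO, which was CD68, a lysosomal protein also made outside the blood lineage, while PTPRC lay at -4.35 or lower. The part of these shifts in the results below was not tested.

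Exact matches to ER stress motifs were found upstream of several members, and the stretches that hold them are shown for members that rose. The sequences are from RefSeq on GRCh38.p14 and cover 250 bases before to 50 after each annotated start. Of the 35 members, 31 were in the promoter table, and PDIA3, FKBP14, DERL1 and DERL3 were not. The ER stress element ERSE (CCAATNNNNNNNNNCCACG) is bound by NF-Y and ATF6 or XBP1, and ERSE-II (ATTGGNCCACG) is its compact form. All stretches lie upstream of the start, run in the direction of the gene, and have their matches on either strand in capitals.

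An ERSE was found in 7 members. The 6 of them that were called higher are shown, and CANX, which also holds one and was not called, is not. HSPA5 is shown at chr9:125241379-125241421 (minus strand), HSP90B1 at chr12:103930204-103930351 (plus strand), CALR at chr19:12938372-12938414 (plus strand), CRELD2 at chr22:49918542-49918584 (plus strand), PDIA6 at chr2:10812841-10812883 (minus strand) and ERO1B at chr1:236282171-236282208 (minus strand).
HSPA5: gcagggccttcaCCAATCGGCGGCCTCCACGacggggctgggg
HSP90B1: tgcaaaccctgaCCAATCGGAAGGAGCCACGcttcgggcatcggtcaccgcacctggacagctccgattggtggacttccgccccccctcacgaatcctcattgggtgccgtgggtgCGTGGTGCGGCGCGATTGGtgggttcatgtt
CALR: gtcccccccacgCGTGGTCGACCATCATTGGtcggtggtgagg
CRELD2: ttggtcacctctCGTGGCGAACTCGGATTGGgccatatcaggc
PDIA6: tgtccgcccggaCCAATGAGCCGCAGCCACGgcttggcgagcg
ERO1B: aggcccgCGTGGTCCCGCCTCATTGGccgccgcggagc

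The following members hold an ERSE-II. HERPUD1 is shown at chr16:56931954-56932047 (plus strand), SDF2L1 at chr22:21642102-21642136 (plus strand) and HYOU1 at chr11:119057262-119057405 (minus strand). HERPUD1 also holds a match to the C/EBP-ATF response element CARE (TGATGNAA), and HYOU1 a match to the XBP1 element UPRE (TGACGTGG) that overlaps its distal ERSE-II.
HERPUD1: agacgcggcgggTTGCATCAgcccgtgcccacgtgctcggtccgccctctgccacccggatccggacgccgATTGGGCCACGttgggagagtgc
SDF2L1: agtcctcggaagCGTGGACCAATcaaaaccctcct
HYOU1: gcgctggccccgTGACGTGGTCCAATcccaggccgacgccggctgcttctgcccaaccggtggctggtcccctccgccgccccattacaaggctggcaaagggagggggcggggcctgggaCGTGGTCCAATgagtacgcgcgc

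The chosen ER folding genes were mostly higher in CNTNAP4 KO than in VC cells, and fewer of the chosen ERAD genes passed the test. Of the 35 members, 24 passed the test as higher (limma, Benjamini-Hochberg adjusted p under 0.05) and 0 as lower, beside 13.1% of all tested genes called higher and 19.8% called lower. The members were chosen with earlier results of these data known, so the counts describe these genes only. At an unadjusted p under 0.05, 25 were higher and 0 lower, and among other limma settings up to 2 were called lower (ERO1A with NPLOC4 or VCP). The median log2 fold change was 0.64 over the members and -0.13 over all genes tested. The increase was at least a doubling in 16 of the 24, beside 4.1% of all genes tested that were called and at least doubled. The largest was 12-fold, for SDF2L1. All 3 KO libraries lay above all 3 VC libraries in 26 members, beside 22.6% of all genes with 6 values, and below them in 5, beside 36.7%. Among the 20 folding genes 17 were higher, with a median log2 fold change of 1.23, and among the 15 ERAD genes 7 were higher, with a median of 0.40.

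**Figure D1:**
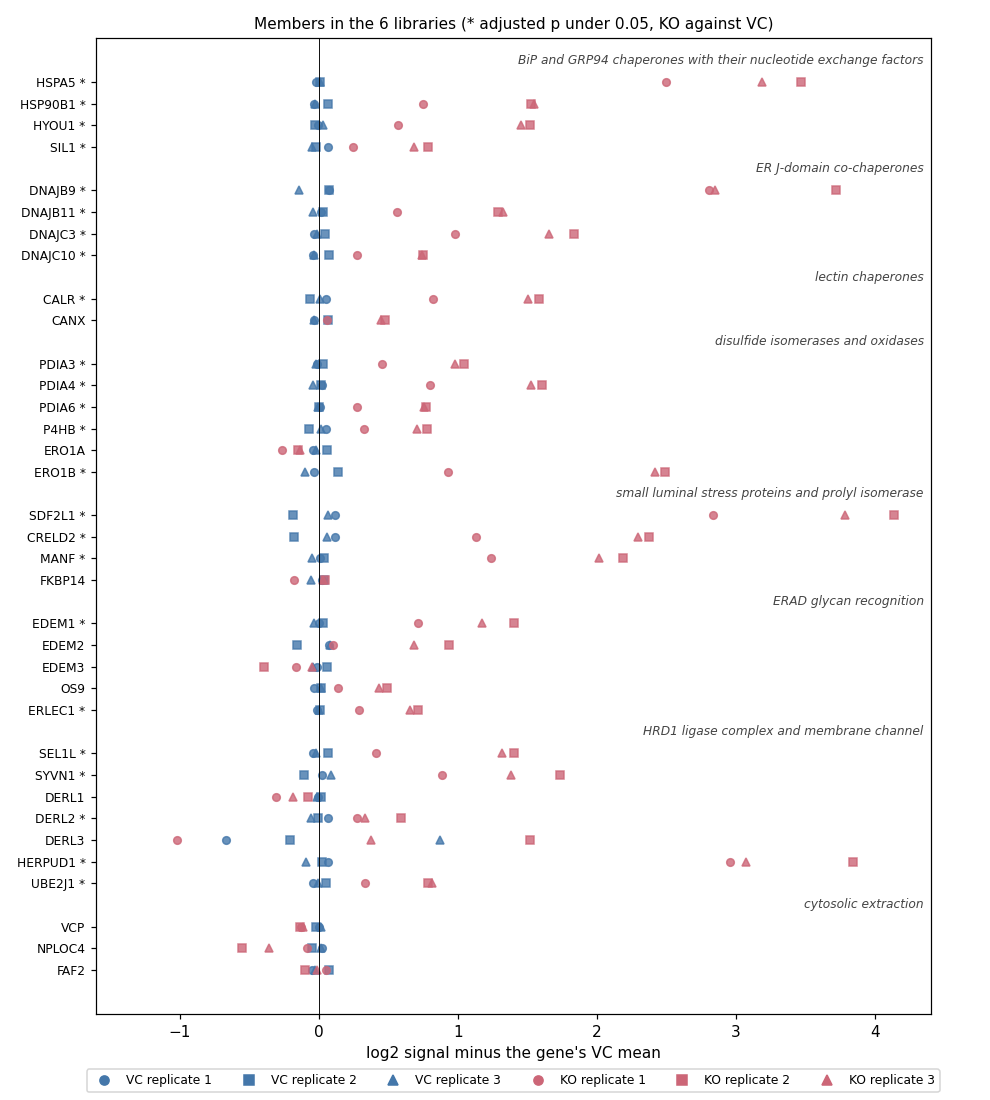
Log2 signal of each of the 35 members in each library, as the difference from the mean of its 3 VC libraries, grouped by role, with an asterisk for an adjusted p under 0.05. Called members lie to the right in all 3 KO libraries, with KO replicate 1 nearest to VC, while the cytosolic extraction genes lie at or left of 0 on average.

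The KO libraries lay at different distances from VC. KO replicate 1 was the lowest of the 3 KO libraries in 24 of the 24 called members, and in 64.4% of all genes called higher with 3 KO values. KO replicate 2 was the highest in 21 members, which is 87.5%, beside 78.4% of those genes. The median difference of the members from the VC mean was 0.33 in KO replicate 1, 1.04 in KO replicate 2 and 0.81 in KO replicate 3. The number of members called higher depended on the libraries included. It was 5, 7 or 4 when the first, second or last VC library was left out in turn, and 27, 12 or 6 when the first, second or last KO library was. HSPA5, DNAJB9, SDF2L1 and HERPUD1 were called in each of those 6 fits, with adjusted p up to 0.0370, 0.0372, 0.0411 and 0.0360, each without VC replicate 3. HYOU1, SIL1, DNAJB11, DNAJC10, PDIA3, PDIA6, P4HB, ERO1B, ERLEC1, SEL1L, DERL2 and UBE2J1 were called in 1 fit only, without KO replicate 1. HSP90B1, CALR, PDIA4, CRELD2 and SYVN1 were called in 2, those without KO replicate 1 or 2. EDEM1, DNAJC3 and MANF were called in 3, 4 and 5 fits. The adjusted p given below for a library left out is the highest of the 6 fits.

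BiP, GRP94 and their nucleotide exchange factors were all higher in KO cells (4 of 4). HSPA5, which encodes BiP, the ER member of the HSP70 family and the protein that holds the UPR sensors inactive, had log2 signals of 5.996, 6.03 and 6.02 in VC and 8.51, 9.48 and 9.20 in KO. The VC libraries spanned a narrow range and every KO library lay far above it, a log2 fold change of 3.05 ± 0.26 (SE, n = 3 per group, adjusted p = 0.0064) or 8.28-fold. HSP90B1, which encodes GRP94, the HSP90 of the ER, rose from 7.31, 7.41 and 7.32 to 8.10, 8.87 and 8.89, a log2 fold change of 1.27 ± 0.24 (adjusted p = 0.018). Its groups did not overlap either. HYOU1, a large HSP70-like protein that exchanges nucleotide on BiP, had log2 signals of 5.62, 5.60 and 5.65 in VC and 6.20, 7.15 and 7.08 in KO, a rise of 1.18 ± 0.27 on the log2 scale (adjusted p = 0.029). SIL1, the other exchange factor, rose by 0.57 ± 0.16 (adjusted p = 0.044). Leaving out 1 library raised the adjusted p to 0.065 for HSP90B1 and 0.12 for SIL1 (without VC replicate 3) and to 0.084 for HYOU1 (without VC replicate 1).

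The J-domain co-chaperones, which bring unfolded clients to BiP and start its ATPase cycle, were also all higher (4 of 4). DNAJB9 (ERdj4), which also represses the sensor IRE1 through BiP, had log2 signals of 0.80, 0.79 and 0.58 in VC and 3.53, 4.44 and 3.57 in KO. No KO value came near the VC range, and the log2 fold change was 3.13 ± 0.27 (adjusted p = 0.0067), or 8.74-fold. DNAJC3 (p58IPK), an inhibitor of PERK and its relatives, had 2.36, 2.44 and 2.38 in VC and 3.37, 4.22 and 4.05 in KO, again without overlap, and rose by 1.49 ± 0.23 (adjusted p = 0.014). A rise was also found in DNAJB11 (ERdj3), a soluble partner of BiP, of 1.06 ± 0.22 (adjusted p = 0.025), and in DNAJC10 (ERdj5), which reduces disulfide bonds of ERAD clients, of 0.59 ± 0.15 (adjusted p = 0.037). With VC replicate 3 left out, DNAJC3 had an adjusted p of 0.055, DNAJB11 of 0.078 and DNAJC10 of 0.11. DNAJB9 shares exon positions with PNPLA8 and THAP5 on the opposite strand, whose mean log2 signals were 1.43 and 2.55 in VC and 2.27 and 3.08 in KO.

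Of the lectin chaperones 1 of 2 rose. CALR, the soluble lectin calreticulin, had log2 signals of 7.57, 7.46 and 7.53 in VC and 8.34, 9.10 and 9.02 in KO, so the groups were apart, and the rise came to 1.30 ± 0.22 (adjusted p = 0.015, or 0.058 without VC replicate 3). CANX, its membrane-bound relative calnexin, had 7.11, 7.21 and 7.11 in VC and 7.21, 7.62 and 7.59 in KO. KO replicate 1 lay inside the VC range, and the log2 fold change of 0.33 ± 0.13 did not pass (adjusted p = 0.11).

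Among disulfide isomerases and oxidases 5 of 6 rose, and the exception was an oxidase. ERO1B, an oxidase that recharges the isomerases and is best known from secretory cells, had log2 signals of -1.37, -1.20 and -1.44 in VC and -0.41, 1.16 and 1.09 in KO. All KO values exceeded all VC values, KO replicate 1 by least, and the log2 fold change was 1.95 ± 0.45 (adjusted p = 0.029). ERO1A, the oxidase with the same reaction that is induced by hypoxia, had 5.37, 5.47 and 5.39 in VC and 5.15, 5.26 and 5.27 in KO. The KO libraries lay below VC, but the log2 fold change of -0.18 ± 0.074 did not pass (adjusted p = 0.11). PDIA4, an isomerase with an additional active site, had log2 signals of 5.52, 5.51 and 5.46 in VC and 6.29, 7.10 and 7.02 in KO, well apart. The isomerases that rose were PDIA4 (1.31 ± 0.23, adjusted p = 0.017), PDIA3 (0.83 ± 0.17, adjusted p = 0.024), which works on glycoproteins with calnexin and calreticulin, P4HB (0.60 ± 0.14, adjusted p = 0.030), which is PDI itself and a subunit of collagen prolyl hydroxylase, and PDIA6 (0.60 ± 0.15, adjusted p = 0.037). Without VC replicate 3 the adjusted p rose to 0.062 for PDIA4, 0.077 for PDIA3, 0.088 for P4HB, 0.10 for PDIA6 and 0.088 for ERO1B. The processed copy PDIA3P1 had mean log2 signals of 2.39 ± 0.032 in VC and 2.56 ± 0.077 in KO (SD, n = 3), and how reads shared by PDIA3 and its copy were counted is not given in the sources used here.

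Of the small luminal proteins, 3 of 4 rose. SDF2L1, which works with ERdj3 and BiP to keep clients soluble, had log2 signals of 2.97, 2.66 and 2.92 in VC and 5.68, 6.98 and 6.63 in KO. Every KO value was well above the VC values, and the log2 fold change of 3.59 ± 0.35 (adjusted p = 0.0079) was the highest among the members. CRELD2, a stress-induced secreted protein, had 2.08, 1.79 and 2.02 in VC and 3.09, 4.34 and 4.26 in KO, and rose by 1.93 ± 0.36 (adjusted p = 0.019, and 0.063 without VC replicate 3). MANF, a stress-induced factor that binds BiP, had 5.34, 5.37 and 5.28 in VC and 6.57, 7.52 and 7.35 in KO. Its groups were also apart, with a rise of 1.82 ± 0.26 (adjusted p = 0.012, and 0.050 without VC replicate 3, where the call was lost). FKBP14, a prolyl isomerase that acts on collagen, had 2.78, 2.79 and 2.70 in VC and 2.58, 2.81 and 2.79 in KO. The groups overlapped, with a change of -0.03 ± 0.091 (adjusted p = 0.80) whose sign changed with median centring (0.05) and cyclic loess (0.05). SDF2L1, CRELD2 and DERL3 lie on chromosome 22, where the median log2 fold change of 447 tested genes was 0.29, and its part in their changes was not tested. CRELD2 shares exon positions with ALG12 on the opposite strand, whose mean log2 signal was 1.64 in VC and 2.59 in KO.

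**Figure D2:**
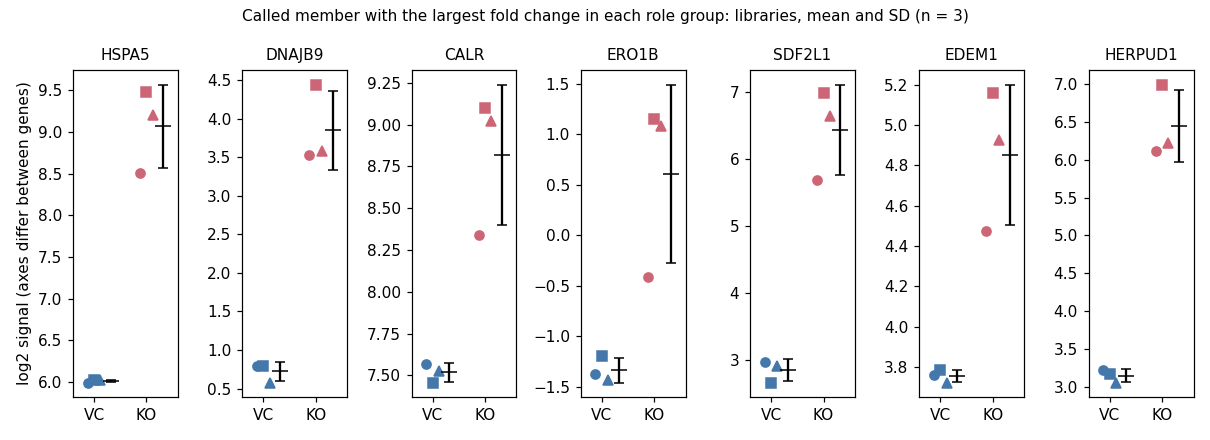
Log2 signal of the called member with the largest fold change in each role group, with the 3 libraries of each group as points and the mean and SD beside them, each gene on its own axis. In all 7 genes the 3 KO libraries lie above the 3 VC libraries.

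In the glycan recognition step of ERAD 2 of 5 genes rose. EDEM1, a mannosidase-like protein that trims glycans of misfolded clients, had log2 signals of 3.76, 3.79 and 3.72 in VC and 4.47, 5.16 and 4.93 in KO, with no overlap and a rise of 1.10 ± 0.18 (adjusted p = 0.015, and 0.059 without VC replicate 3). ERLEC1, a lectin that reads the trimmed glycan, rose by 0.55 ± 0.13 (adjusted p = 0.031, and 0.091 without VC replicate 1). The other lectin, OS9, had a log2 fold change of 0.35 ± 0.11 that missed the threshold (adjusted p = 0.062), although all KO values exceeded the VC values. The changes of EDEM2 (0.58 ± 0.23, adjusted p = 0.11) and EDEM3 (-0.20 ± 0.11, adjusted p = 0.20), the relatives of EDEM1, did not pass. EDEM2 lies on chromosome 20, where the median over 491 tested genes was -0.25.

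In the HRD1 ligase complex and its channel 5 of 7 genes rose. HERPUD1 (HERP), a short-lived membrane protein that assembles the complex, had log2 signals of 3.22, 3.17 and 3.06 in VC and 6.11, 6.99 and 6.22 in KO. KO replicate 1, the nearest to VC, lay 2.96 above the VC mean, and the log2 fold change was 3.29 ± 0.25 (adjusted p = 0.0059), or 9.79-fold. SYVN1, the ubiquitin ligase HRD1 itself, had 3.03, 2.90 and 3.09 in VC and 3.89, 4.74 and 4.39 in KO, a rise of 1.33 ± 0.23 (adjusted p = 0.016). Its partner SEL1L had 3.47, 3.57 and 3.49 in VC and 3.92, 4.91 and 4.83 in KO, a rise of 1.04 ± 0.28 (adjusted p = 0.042). Neither gene had overlapping groups. UBE2J1, a ubiquitin-conjugating enzyme anchored in the ER membrane, rose by 0.64 ± 0.15 (adjusted p = 0.030). Of the derlins, which form the channel, DERL2 rose by 0.40 ± 0.11 (adjusted p = 0.042), while the changes of DERL1 at -0.19 ± 0.083 (adjusted p = 0.13) and DERL3 at 0.29 ± 0.75 (adjusted p = 0.78) did not pass. DERL3 had low and scattered signals, from -5.10 to -3.57 in VC and from -5.46 to -2.92 in KO, and its sign changed without VC replicate 1 (-0.04) or KO replicate 2 (-0.32). SYVN1 had an adjusted p of 0.057 and UBE2J1 of 0.090 without VC replicate 1, SEL1L of 0.11 without KO replicate 3, and DERL2 of 0.12 without VC replicate 3. DERL1 lies on chromosome 8 (median -0.32 over 636 tested genes), and SEL1L and ERO1A on chromosome 14 (median -0.39 over 561 tested genes). SYVN1 shares exon positions with FAU on the same strand, whose mean log2 signal was 9.15 in VC and 9.08 in KO.

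The cytosolic extraction genes did not pass the test in either direction (0 of 3). VCP, the ATPase that pulls clients out of the membrane, had log2 signals of 6.78, 6.76 and 6.80 in VC and 6.65, 6.65 and 6.67 in KO, all KO values lower, with a log2 fold change of -0.12 ± 0.061 (adjusted p = 0.16). Its cofactor NPLOC4, at -0.33 ± 0.13 (adjusted p = 0.11), had the lowest value of the members. FAF2 (UBXD8), which brings VCP to the ER membrane, had -0.02 ± 0.078 (adjusted p = 0.85), and its sign changed with median centring (0.07) and cyclic loess (0.03).

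Related genes were compared within each library, as the log2 difference of a pair, in 9 pairs. The difference between SDF2L1 and SDF2 was higher in KO by 3.70, and that between HERPUD1 and HERPUD2 by 3.12, the relatives in these pairs having been picked after their values were seen. The difference was higher by 2.13 for ERO1B against ERO1A, 1.30 for EDEM1 against EDEM3, 0.52 for EDEM1 against EDEM2, 0.97 for CALR against CANX, and 0.59 for DERL2 against DERL1. In these pairs and for CRELD2 against CRELD1 (0.20) the 3 KO differences lay above the 3 VC differences, with a two-sided exact permutation p of 0.1, the smallest that 3 against 3 allow, and a Benjamini-Hochberg value of 0.11 over the 9 pairs. MANF against CDNF changed by 0.72 with overlap (exact permutation p = 0.3). The design cannot reach 0.05 in this test. The first gene of each pair had been called higher in the same libraries, so the differences partly restate those calls.

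**Figure D3:**
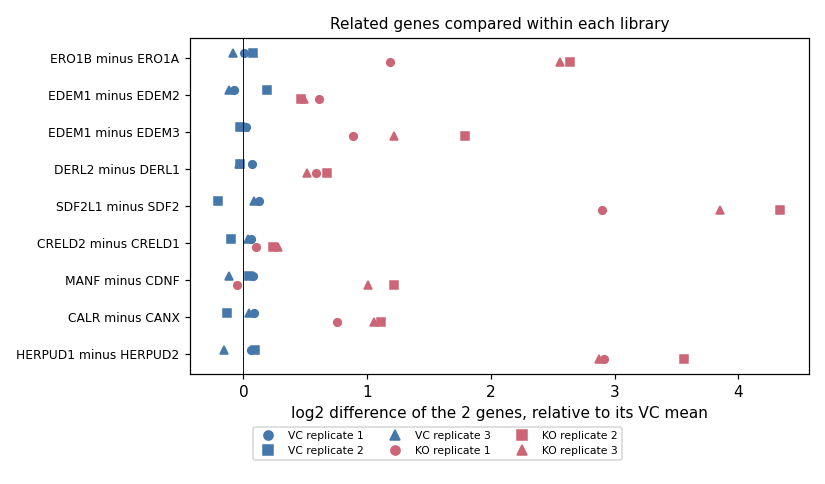
Log2 difference between the genes of 9 related pairs within each library, relative to the mean of the VC libraries. The KO points lie to the right of the VC points in every pair except MANF minus CDNF, where KO replicate 1 falls among them.

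Other genes of the same pathways are given for comparison, beside 13.1% of all tested genes called higher and 19.8% called lower. Of 47 other ER folding genes 44 could be tested, and 9 were higher and 1 lower, with a median log2 fold change of 0.10. The largest increases were in CRELD1 (1.73, adjusted p = 0.018), the membrane-bound relative of CRELD2, in CDNF (1.09, adjusted p = 0.0081), the relative of MANF, and in HSPA13 (0.86, adjusted p = 0.016), an HSP70-family member of the ER, while TXNDC12, a thioredoxin-like ER protein, was lower (-0.38, adjusted p = 0.016). Of 50 other ERAD genes 49 could be tested, and 11 were higher and 5 lower, with a median of 0.04. SELENOS (1.04, adjusted p = 0.025) and SELENOK (0.83, adjusted p = 0.020), selenoproteins that bind VCP and derlins, and FBXO6 (0.63, adjusted p = 0.037), a ubiquitin ligase subunit that binds glycans, were the highest. UBE2G2, a conjugating enzyme of ERAD (-0.98, adjusted p = 0.028), the deubiquitinase YOD1 (-0.88, adjusted p = 0.018) and GET4, a partner of BAG6 in the cytosol (-0.70, adjusted p = 0.015) were the lowest. Of 23 UPR regulators 22 could be tested, and 14 were higher and 1 lower, with a median of 0.66. The largest were DDIT3 (CHOP; 4.34, adjusted p = 0.0048), the pro-apoptotic factor of the response, XBP1 (2.47, adjusted p = 0.0060) and TRIB3 (2.31, adjusted p = 0.0081), and the one lower was NFYB (-0.70, adjusted p = 0.012), a subunit of NF-Y. Of these named genes CDNF, DDIT3, XBP1 and TRIB3 kept the call in each fit that left out 1 library. Without VC replicate 3 the others had adjusted p-values of 0.062 (CRELD1), 0.062 (HSPA13), 0.071 (TXNDC12), 0.079 (SELENOS), 0.069 (SELENOK), 0.083 (UBE2G2), 0.060 (GET4) and 0.051 (NFYB), and without VC replicate 1 0.11 (FBXO6) and 0.063 (YOD1).

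**Figure D4:**
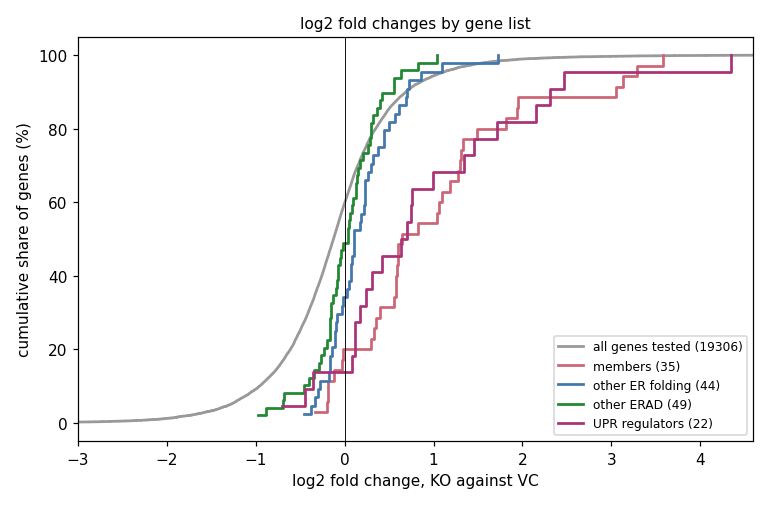
Cumulative share of genes against log2 fold change, KO against VC, for the members, the 3 other lists and all genes tested. The medians of the members and the UPR regulators, 0.64 and 0.66, lie right of those of the other ER folding (0.10) and other ERAD genes (0.04) and of all genes (-0.13). At the low end the curve of the UPR regulators, down to -0.70, reaches left of that of the other ER folding genes, down to -0.45.

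The stress motifs shown above were uncommon among promoters. Of 35116 promoters, 0.0769% held an ERSE and 0.0541% an ERSE-II on either strand. Counted by gene, members included, 25 of 27305 held an ERSE and 19 an ERSE-II. An ERSE was found in 7 members (CALR, CANX, CRELD2, ERO1B, HSP90B1, HSPA5 and PDIA6) and an ERSE-II in 3 (HERPUD1, HYOU1 and SDF2L1). In CANX 1 site was counted from 3 annotated starts. Of these 10 members 9 were higher, all but CANX, with a median log2 fold change of 1.62 over the 10. Of the 21 members in the table without either motif 14 were higher, with a median of 0.59. Among other genes, 12 tested genes with an ERSE included 7 higher and 0 lower, and 13 with an ERSE-II included 1 higher and 2 lower. The 8 higher genes with either motif were ALG12, EIF2A, FICD, PLS3, SERP1, SYNPO, TRIM5 and XBP1. XBP1 is also counted among the UPR regulators above. ALG12 shares exon positions with the member CRELD2 on the opposite strand, and whether both were counted through the same match was not tested. The UPRE was found in 0.729% of promoters and in 4 members, DNAJC10, HYOU1 and UBE2J1, which rose, and VCP, which did not pass the test. Of 155 other tested genes with a UPRE, 20 were higher and 32 lower, beside 13.1% and 19.8% of all genes tested. The CARE was found in 3.62% of promoters and in HERPUD1. Of 413 other tested genes with a CARE, 89 were higher and 76 lower. A match describes the letters of the window and not binding, and these counts are given with no test. The motifs are known from ER stress genes, so matches in members and other genes of that kind may not be independent of how the motifs were defined.

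**Figure D5:**
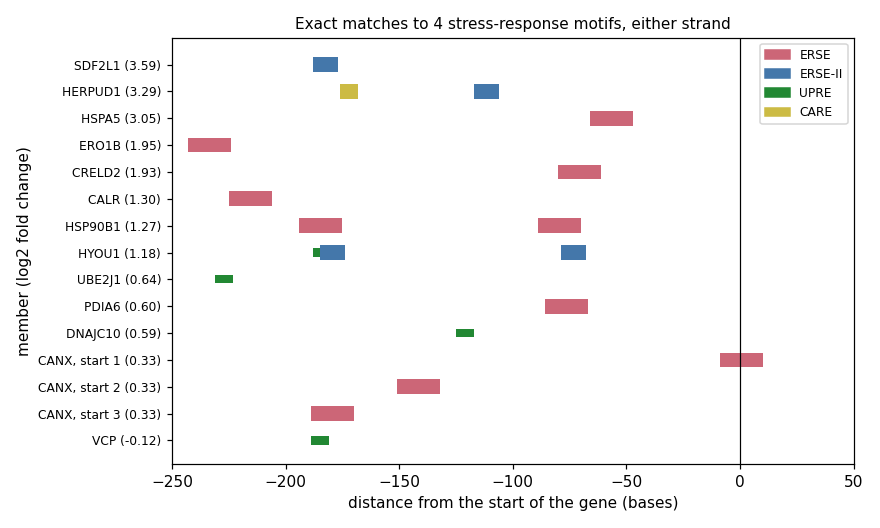
Positions of exact matches to 4 motifs, on either strand, in bases from the annotated start, in the members with a match, ordered by log2 fold change (in brackets), with CANX drawn once for each of its 3 starts. SDF2L1, HERPUD1 and HSPA5, with log2 fold changes of 3.59, 3.29 and 3.05, each hold an ERSE or ERSE-II, while DNAJB9, at 3.13, has no match and is not drawn.

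In bulk RNA more cells with a transcript and more of it per cell cannot be told apart, and the same holds for a fall. Exons of 12 members lie over exons of another gene that has values in the table. These are CRELD2, DERL1, DERL2, DERL3, DNAJB9, DNAJB11, HSP90B1, NPLOC4, PDIA3, PDIA6, SIL1 and SYVN1. For SIL1 the other genes include MATR3, with mean log2 signals of 6.36 in VC and 6.10 in KO. For DERL3 the other gene is SMARCB1, at 4.42 in VC and 5.09 in KO. The strand setting of the authors' counting is not given in the sources used here, so the signals of such genes are uncertain.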

How the data were processed

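RNA-seq of 3 VC and 3 CNTNAP4 KO samples of 143B cells was analysed. The deposited values are log2 signals per gene symbol, which the authors had brought to nearly the same distribution in every library. CASAVA, STAR, Partek and GRCh38.p13 are named in the submitters' processing notes. The labels give an mRNA kit and the methods total RNA sequencing. The linear unit and the depth are not given in the sources used here, so no interval for counting error was computed, and whether the samples came from separate cultures is not stated.

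The 19306 genes that had a value in 2 or more libraries of both groups were tested in limma 3.58.1 in R 4.3.3, with empirical Bayes moderation and two-sided p-values adjusted over all of them by the Benjamini-Hochberg method at 0.05. The members and the lists of other genes were chosen with earlier results of these data known. All 35 members are named, and from each other list up to 3 called genes in each direction with the largest change. Members given by library are those with the largest change among called genes of each role group, and others were added after their values were seen. Alternatives were other sets of genes, centring, cyclic loess, 1 added to the linear signal, a trend with robust moderation, a replicate block and leaving out each library. Promoters were searched with Python 3.11.15, and exon overlaps were taken from GENCODE release 29. Pairs of related genes were compared with SciPy 1.17.1.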

Additional observations from a re-analysis of the deposited data

How the results depend on the processing

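The median log2 fold change of the members stayed between 0.60 and 0.73 under the other settings and between 0.56 and 0.95 with 1 library left out. The median over all genes moved from -0.13 to -0.04 with median centring, -0.02 with 1 added to the linear signal and -0.001 with cyclic loess, and the members' count of 24 higher was the same under median centring and loess. With a replicate block 6 members were higher, all among the 24, and with 1 library left out 4 to 27. The count of lower members, 0, became 2 in the upper 50% of mean signal, 2 with 1 added and 2 with trend and robust moderation, and was 0 to 1 with 1 library left out. For the other ER folding genes, 9 higher became 14 in the upper 50%, 14 with median centring, 15 with 1 added, 16 with trend and 2 with the block, and 1 to 16 with 1 library left out. Their 1 lower became 2 among genes with 6 values, 6 in the upper 50%, 6 with 1 added, 5 with trend and 0 with the block, and 0 to 3 with 1 library left out. For other ERAD genes, 11 higher became 0 with the block and 0 to 14 with 1 library left out, and 5 lower became 8 with 1 added, 1 with the block and 0 to 9 with 1 library left out. For UPR regulators, 14 higher became 8 with the block and 7 to 14 with 1 library left out, and 1 lower became 2 in the upper 50%, 2 with trend, 0 with the block and 0 to 2 with 1 library left out. The cause of these moves was not tested. Over all genes 6354 were called, 1533 with the block and 1223 (without VC replicate 3) to 8669 (without KO replicate 1) with 1 library left out. Same-numbered VC and KO libraries did not deviate together (correlations across genes of 0.023, 0.0051 and -0.0074), so the values gave no sign of pairing by number. Whether same-numbered samples were handled together cannot be told from these correlations.

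Signs changed only in members that were not called. FKBP14 (-0.033) became 0.054 with median centring and 0.048 with cyclic loess, and -0.074 to 0.040 with 1 library left out. FAF2 (-0.022) became 0.066 with median centring and 0.033 with loess, and -0.059 to 0.018 with 1 library left out. DERL3 (0.29) ranged from -0.32 to 0.95 with 1 library left out. The unknown depth and the 3 libraries per group limit what small changes can be shown.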
